A study of Drosophila melanogaster with 15 samples.

Results

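The genes described here are the protein-coding genes of chromosome 4 of Drosophila melanogaster, the dot chromosome. A gene entered when RefSeq places it on chromosome 4 and the array holds a probeset that carries its symbol and no other. Where several probesets met this rule for a gene, the probeset with the highest mean over all arrays was used. This gave 66 genes of the 80 protein-coding genes of chromosome 4 in RefSeq, out of 12388 protein-coding genes measured in the whole series. The other 12322 genes, nearly all on arms X, 2L, 2R, 3L and 3R, served for comparison. The 14 genes without such a probeset, among them CaMKII, pan, pho, RpS3A and PlexA, are not analysed here.

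The dot chromosome is small and has the staining and histone marks of heterochromatin along most of its length, yet its genes are expressed about as strongly as genes elsewhere. It carries the heterochromatin protein HP1a together with Pof, a protein that binds the transcripts of this chromosome in particular. In other species of flies the same set of genes behaves as an ancestral X chromosome, and Pof is related to the machinery that adjusts the output of a whole chromosome. Several of its genes act in the nervous system, including glutamate receptors, proteins of vesicle release and the Pax6 genes ey and toy of eye development.

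RNA came from homogenates of whole heads and was hybridized to 15 Affymetrix arrays, 5 for each of 3 genotypes. The elav/v105975 flies carried the pan-neuronal elav-Gal4 driver together with v105975, a UAS transgene that encodes a hairpin RNA against Clic. The v105975/+ flies carried the transgene without the driver, and the elav/+ flies carried the driver without the transgene. Since the driver acts in neurons and the homogenates held every cell type of the head, fewer cells of a type and less RNA per cell cannot be told apart. Neither the age and sex of the flies nor the number of crosses or collections behind each set of 5 arrays is stated in the labels or the methods read here, and p-values measure only the spread between these arrays. Values are log2 intensities per probeset, and a difference of such values is called a log2 fold change.

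Clic, the targeted gene, which lies on chromosome X, was at 8.40 ± 0.085 in elav/v105975, 8.94 ± 0.083 in v105975/+ and 9.16 ± 0.054 in elav/+ (SD, n = 5 each). These levels were 59.0% of the elav/+ level in elav/v105975 and 85.9% in v105975/+, with adjusted p = 5.48e-07 and adjusted p = 0.0269 from limma. Array medians lay between 6.16 and 6.24. Of the 66 chromosome 4 genes, 65 had a mean level above 4.29, the level that the dimmest 25% of all probesets did not reach. The exception, JYalpha, had a mean of 2.89 and was the only member matched by symbol alone. Within a genotype the median SD of a chromosome 4 gene was 0.0641 in elav/v105975, 0.0764 in v105975/+ and 0.0619 in elav/+, while it was 0.120, 0.121 and 0.120 for the genes of other chromosomes. These sets also differed in level, as given below, and the spread was not compared at like level.

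In elav/v105975 heads most chromosome 4 genes had a higher level than in elav/+ heads, each by a small amount. The log2 fold change was above 0 for 60 of the 66 genes (90.9%), while it was above 0 for 49.7% of the genes of other chromosomes. Its median over the chromosome 4 genes was 0.15, a level higher by 11.0%, with quartiles of 0.08 and 0.20. Over the other genes the median was -0.00 and the quartiles were -0.10 and 0.09. In limma, with p-values adjusted by Benjamini-Hochberg across the 16322 probesets of the array, 23 of the 66 genes passed an adjusted p of 0.05, 22 of them higher and 1, apolpp, lower. That is 34.8% of the chromosome 4 genes, beside 9.16% of the genes of other chromosomes and 9.43% of all probesets.

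Chromosome 4 genes were also brighter, with a median level of 9.21 on the log2 scale beside 6.21 for the other genes, and brighter genes were called more often in both sets (split at a level chosen after the values had been seen). Of the 926 other genes with a mean level at or above that of the median chromosome 4 gene, 21.6% were called and 58.9% were above 0, with a median log2 fold change of 0.03. Of the 33 chromosome 4 genes at or above this level, 48.5% were called and 93.9% were above 0, with a median of 0.16.

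The other genes were called in both directions in like numbers, with 4.21% higher and 4.95% lower. No arm came near the share of chromosome 4, since the percentage called was 7.75 on X, 10.5 on 2L, 9.92 on 2R, 7.76 on 3L and 9.63 on 3R. For 33 of the 66 genes all 5 elav/v105975 arrays lay above all 5 elav/+ arrays (50.0%, beside 5.06% of the other genes). Among other genes at or above the level of the median chromosome 4 gene this share was 14.5%. Among those that also reached its span, from the first to the last annotated base, it was 21.5%. Of the chromosome 4 genes at or above that level it was 75.8%. For 2 genes, apolpp and Mpv17, all 5 lay below (4.84% of all the other genes). The changes were small in size. The highest, in Kif3C, was 0.48 on the log2 scale, so that no chromosome 4 gene passed the test with a change of at least 1.5-fold.

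The shift was also read array by array, as the median over the 66 genes of the level minus the mean elav/+ level of the same gene. It was 0.119, 0.131, 0.115, 0.188 and 0.137 in the elav/v105975 arrays. In the v105975/+ arrays it was 0.0401, 0.120, 0.0858, -0.0207 and 0.0582, and in the elav/+ arrays it was 0.00432, -0.0137, 0.00355, 0.00802 and 0.00664. All 5 elav/v105975 arrays were high, and of the v105975/+ arrays replicate 2 lay within their range and replicate 4 lay below every elav/+ array. The elav/+ arrays lie near 0 by construction, since they enter their own mean. Set against the other 4 elav/+ arrays instead, the lowest was -0.0171 and the others lay between 0.00444 and 0.01002. The mean of the array medians was 0.138 ± 0.0296 in elav/v105975, 0.0567 ± 0.0527 in v105975/+ and 0.00176 ± 0.00883 in elav/+ (SD, n = 5 each). The same means for arms X, 2L, 2R, 3L and 3R all lay between -0.00277 and 0.0124.

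**Figure D1:**
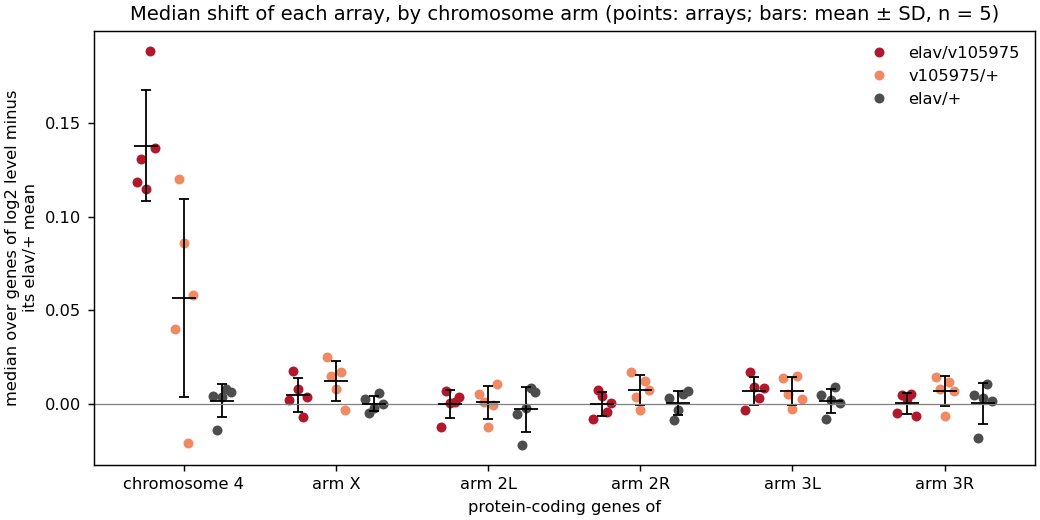
Median over the genes of a chromosome or arm of the log2 level minus the mean elav/+ level, with 1 point per array for elav/v105975, v105975/+ and elav/+ and bars at the mean ± SD of 5 arrays. On chromosome 4 the elav/v105975 arrays sit between 0.115 and 0.188 and the v105975/+ arrays between -0.0207 and 0.120, while the group means of the other arms stay between -0.00277 and 0.0124.

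The gene set on synapse and neuronal excitability was the most uniform. All 9 measured members were higher in elav/v105975 than in elav/+ at an adjusted p of 0.05, with a median log2 fold change of 0.22, and in each of the 9 the 5 elav/v105975 arrays lay above the 5 elav/+ arrays. The list was drawn up with results of these arrays known, so the count describes it and tests nothing. It holds CG32017, an uncharacterized gene, and leaves out Gat, the GABA transporter gene. Gat had a log2 fold change of 0.23 that did not pass (adjusted p = 0.195 from limma), and its elav/v105975 and elav/+ arrays overlapped. The calls of 5 members (CG11155, CG32017, Ekar, mGluR and unc-13) held under all 25 alternative fits (15 that left out 1 array and 10 others, all at an adjusted p of 0.05), and those of Cadps, Cals, PMCA and Syt7 were lost under 3, 4, 7 and 6 of them.

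Ekar encodes a subunit of a kainate-type glutamate receptor found in photoreceptors. Its level was 9.48, 9.55, 9.56, 9.52 and 9.35 in elav/v105975, 9.36, 9.49, 9.47, 9.30 and 9.30 in v105975/+, and 9.10, 9.11, 9.15, 9.20 and 9.24 in elav/+. All arrays with the transgene lay above all elav/+ arrays, while the ranges of elav/v105975 and v105975/+ overlapped. The log2 fold change of elav/v105975 against elav/+ was 0.33 (standard error 0.056, adjusted p = 0.00173 from limma). Against v105975/+ it was 0.11, with a 95% confidence interval from -0.01 to 0.23.

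CG11155, which encodes another subunit of the kainate type, stood in steps. It was at 10.32, 10.38, 10.28, 10.36 and 10.34 in elav/v105975, 10.27, 10.24, 10.24, 10.21 and 10.23 in v105975/+, and 10.21, 10.08, 10.15, 10.06 and 10.09 in elav/+. No 2 genotypes overlapped, and v105975/+ lay between the others. The change was 0.22 for elav/v105975 against elav/+, with a standard error of 0.041 (adjusted p = 0.00360 from limma). For v105975/+ against elav/+ it was 0.12 and did not pass (adjusted p = 0.110 from limma).

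mGluR, the metabotropic glutamate receptor, was at 9.22, 9.28, 9.30, 9.32 and 9.31 in elav/v105975, 9.30, 9.24, 9.27, 9.24 and 9.14 in v105975/+, and 9.08, 8.96, 8.99, 9.09 and 9.10 in elav/+. The elav/+ arrays were low and apart, and the other genotypes overlapped. The change against elav/+ was 0.24 in elav/v105975 (adjusted p = 0.00355 from limma) and 0.20 in v105975/+ (adjusted p = 0.0182 from limma). The glutamate receptor genes of chromosome 4 were therefore all higher in elav/v105975 than in elav/+, and Ekar and mGluR were also higher in v105975/+.

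unc-13 encodes the protein that primes synaptic vesicles for release. It was at 10.92, 11.03, 11.01, 10.99 and 10.95 in elav/v105975, 10.90, 10.94, 10.90, 10.78 and 10.91 in v105975/+, and 10.77, 10.72, 10.85, 10.77 and 10.71 in elav/+. All elav/v105975 arrays lay above all elav/+ arrays, and v105975/+ overlapped both, with its replicate 4 the lowest. The log2 fold change of elav/v105975 against elav/+ was 0.22 (standard error 0.046, adjusted p = 0.00791 from limma).

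The remaining members of the list act at several steps of secretion and calcium handling. Cadps, which acts in the release of dense-core vesicles, rose by 0.16 on the log2 scale (adjusted p = 0.0212), and Syt7, a synaptotagmin, by 0.21 (adjusted p = 0.0280). PMCA, the calcium pump of the plasma membrane, rose by 0.16 (adjusted p = 0.0239). Cals, the calsyntenin of the fly, rose by 0.18 (adjusted p = 0.0228), and the uncharacterized CG32017 by 0.23 (adjusted p = 0.00689, all from limma). Cals differed from the receptors in that v105975/+ and elav/+ were close, at 10.40 ± 0.063 and 10.38 ± 0.044 (SD, n = 5 each), while the lowest elav/v105975 array exceeded the highest v105975/+ array (log2 fold change 0.17, exact permutation test, two-sided, p = 0.00794, the smallest p that 5 against 5 arrays allow, and adjusted p = 0.211 from limma).

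**Figure D2:**
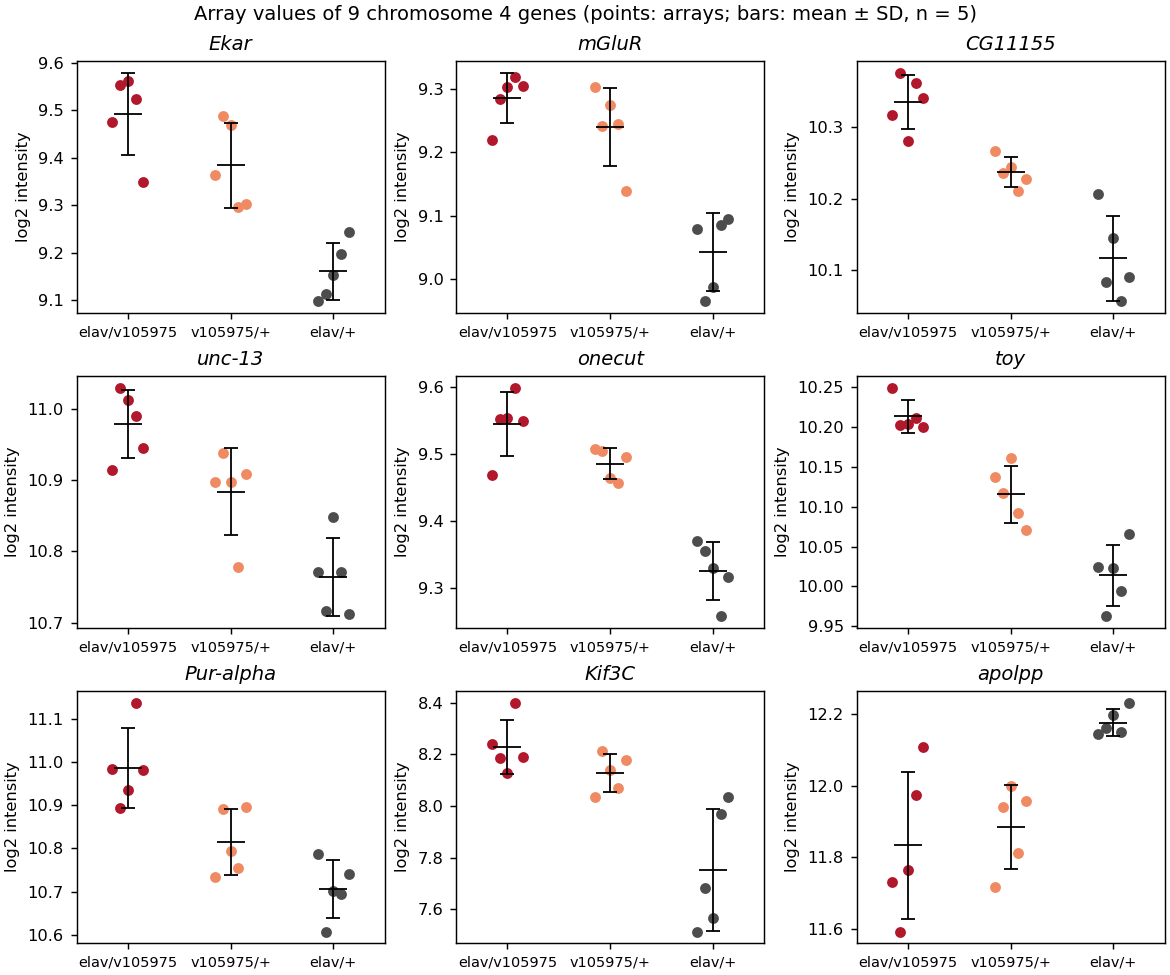
Log2 intensity of 9 chromosome 4 genes in each array of elav/v105975, v105975/+ and elav/+, with bars at the mean ± SD of 5 arrays and a separate scale for each gene that does not start at 0. In 8 genes all elav/v105975 arrays lie above all elav/+ arrays, and in apolpp they lie below.

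Among 12 developmental transcription factors and cofactors, 3 passed the test, all higher in elav/v105975, and the median log2 fold change was 0.08. onecut, a homeodomain factor of the nervous system, was at 9.47, 9.55, 9.55, 9.60 and 9.55 in elav/v105975, 9.51, 9.50, 9.46, 9.46 and 9.50 in v105975/+, and 9.37, 9.36, 9.33, 9.26 and 9.32 in elav/+. All arrays with the transgene were above all arrays without it. Its change was 0.22 in elav/v105975 (adjusted p = 0.00295 from limma) and 0.16 in v105975/+ (adjusted p = 0.0282 from limma).

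toy, a Pax6 gene that acts upstream of ey in the eye, was at 10.25, 10.20, 10.20, 10.21 and 10.20 in elav/v105975, 10.14, 10.12, 10.16, 10.09 and 10.07 in v105975/+, and 10.02, 9.96, 10.02, 9.99 and 10.07 in elav/+. The 3 genotypes did not overlap. The change of elav/v105975 against elav/+ was 0.20 (adjusted p = 0.00398 from limma). ey, the other Pax6 gene, was named after its values were seen, for comparison with toy. It was at 7.72 ± 0.101 in elav/v105975 and 7.67 ± 0.121 in elav/+ (SD, n = 5 each), with a log2 fold change of 0.05 and a 95% confidence interval from -0.08 to 0.19 (adjusted p = 0.680 from limma).

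NfI, the nuclear factor I gene of the fly, separated the driven genotype from both others. It was at 10.64, 10.63, 10.64, 10.66 and 10.74 in elav/v105975, 10.53, 10.53, 10.54, 10.44 and 10.47 in v105975/+, and 10.46, 10.48, 10.48, 10.38 and 10.49 in elav/+. Only the elav/v105975 arrays were high, and v105975/+ and elav/+ overlapped. The change was 0.20 against elav/+ (adjusted p = 0.00654 from limma) and 0.16 against v105975/+ (adjusted p = 0.164 from limma). ci, the transcription factor of Hedgehog signalling, had a log2 fold change of 0.18 against elav/+ that did not pass (adjusted p = 0.154 from limma).

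Of 7 genes listed under chromatin, transcription and DNA repair, all 7 were above 0 in elav/v105975 against elav/+, with a median log2 fold change of 0.09. The test was passed by 2 of them (28.6%, beside 34.8% of all 66 chromosome 4 genes). Asator, a tau-tubulin kinase homolog, was at 10.28, 10.33, 10.34, 10.30 and 10.32 in elav/v105975, 10.25, 10.24, 10.26, 10.17 and 10.22 in v105975/+, and 10.11, 10.11, 10.11, 10.06 and 10.14 in elav/+. Its 3 genotypes did not overlap, and the change against elav/+ was 0.21 in elav/v105975 (adjusted p = 0.00252 from limma) and 0.12 in v105975/+ (adjusted p = 0.0692 from limma). Pur-alpha, which encodes a protein that binds single-stranded nucleic acids, was at 10.99, 10.89, 10.93, 11.14 and 10.98 in elav/v105975, 10.73, 10.89, 10.79, 10.76 and 10.90 in v105975/+, and 10.79, 10.61, 10.70, 10.69 and 10.74 in elav/+. Here v105975/+ overlapped both other genotypes, which were apart, and the change of elav/v105975 against elav/+ was 0.28 (adjusted p = 0.00527 from limma).

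Of 9 genes of axon guidance and secreted signals, 8 were above 0 in elav/v105975 against elav/+, with a median log2 fold change of 0.15 over the list. The test was passed by 3 of them (33.3%, beside 34.8% of all 66 chromosome 4 genes), all higher. These were Eph, the ephrin receptor (0.15, adjusted p = 0.0329), PlexB, a semaphorin receptor (0.19, adjusted p = 0.0459), and mav, a ligand of the TGF-beta family (0.19, adjusted p = 0.0442, all from limma). These calls were lost under 9, 13 and 15 of the 25 alternatives. Ephrin, the ligand of Eph, had a log2 fold change of 0.15 that did not pass (adjusted p = 0.0755), although its elav/v105975 and elav/+ arrays did not overlap. Actbeta, another TGF-beta ligand, was at -0.02 (adjusted p = 0.881).

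No gene of translation and RNA silencing passed, with log2 fold changes of 0.14 for gw, 0.11 for Gyf, 0.04 for 4E-T and -0.01 for eIF4G1, the scaffold of translation initiation. ATPsynbeta, a subunit of the mitochondrial ATP synthase, had a log2 fold change of 0.13 (adjusted p = 0.166 from limma). bt, which encodes the muscle protein projectin, rose by 0.26 on the log2 scale (adjusted p = 0.0318 from limma), although its elav/v105975 and elav/+ arrays overlapped. The call was lost under 8 of the 25 alternatives. The 19 genes outside these lists had a median log2 fold change of 0.15, with 17 above 0. Of these 19 genes 4 passed (21.1%, beside 34.8% of all 66 chromosome 4 genes), all higher.

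Kif3C, a kinesin motor gene, had the highest log2 fold change of the called genes in both comparisons with elav/+. It was at 8.24, 8.19, 8.13, 8.40 and 8.19 in elav/v105975, 8.04, 8.21, 8.14, 8.07 and 8.18 in v105975/+, and 7.51, 7.68, 7.57, 7.97 and 8.03 in elav/+. The elav/+ arrays were low and spread widely, with replicates 4 and 5 just under the other genotypes. The change was 0.48 in elav/v105975, with a standard error of 0.094 (adjusted p = 0.00489 from limma) and 0.37 in v105975/+ (adjusted p = 0.0285 from limma).

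CG31999, an uncharacterized gene, was called in both comparisons with elav/+ and had nearly the same mean in both genotypes with the transgene. It was at 9.09, 9.18, 9.17, 9.25 and 9.17 in elav/v105975, 9.14, 9.26, 9.16, 9.18 and 9.22 in v105975/+, and 9.04, 8.97, 8.97, 8.90 and 9.02 in elav/+. The elav/+ arrays were low and apart, and the others overlapped. The change against elav/+ was 0.19 in elav/v105975 (adjusted p = 0.0141) and 0.21 in v105975/+ (adjusted p = 0.0113). Between elav/v105975 and v105975/+ it was -0.02, with a 95% confidence interval from -0.12 to 0.08. dpr7, an immunoglobulin-domain gene of the dpr family, and the uncharacterized CG33521 rose by 0.22 and 0.19 in elav/v105975 (adjusted p = 0.0430 and adjusted p = 0.0337, all from limma), calls that were lost under 13 and 9 alternatives.

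apolpp went the other way. It encodes the precursor of the apolipophorins, the main lipid carrier of the hemolymph, which is made in the fat body. It was at 11.73, 11.59, 11.76, 11.97 and 12.11 in elav/v105975, 11.72, 11.94, 12.00, 11.81 and 11.96 in v105975/+, and 12.14, 12.16, 12.20, 12.15 and 12.23 in elav/+. The elav/+ arrays were high and close together, and the arrays of the other genotypes lay below them and overlapped. It fell by 0.34 on the log2 scale in elav/v105975 (adjusted p = 0.0204 from limma), and this call was lost without elav/v105975 replicate 2 (adjusted p = 0.0505). In v105975/+ the change was -0.29 and did not pass (adjusted p = 0.0585).

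Yolk protein genes, listed among the fat body markers, were lower in elav/v105975 than in elav/+, as apolpp was. The fat body markers FASN1 and Lsp2 were not. Of 6 fat body markers 3 were lower in elav/v105975 than in elav/+ at an adjusted p of 0.05 and 0 higher, with a median log2 fold change of -0.31. The 3 were apolpp itself, Yp1 (-0.28) and Yp3 (-0.59), while Yp2 (-0.46), FASN1 (0.09) and Lsp2 (0.04) did not pass. Their mean level per array ran from 10.8 to 11.7 in elav/v105975, from 10.8 to 11.5 in v105975/+ and from 11.2 to 11.9 in elav/+. Neuronal markers, none of them on chromosome 4, had a median log2 fold change of 0.13, beside 0.15 for the chromosome 4 genes. All 4 were above 0 and 1, fne, passed, with array means from 9.999 to 10.1 in elav/v105975, from 9.96 to 10.1 in v105975/+ and from 9.88 to 10.02 in elav/+. Photoreceptor markers were above 0 in 4 of 4 cases, with a median of 0.09, and 1, trp, passed. Of 5 glia markers 2 were above 0 and the median was -0.10, although the 1 that passed, wrapper, was higher (0.43). Of 4 muscle markers 3 were above 0, namely bt itself (0.26), up (0.26) and TpnC41C (0.14), and only bt passed. Act88F was at -0.21. None of the 16 measured markers of hemocytes, testis, ovary and gut passed in this comparison. At the 9.16% called among genes of the other chromosomes few of 16 would be called, so the count says little about them. In v105975/+ against elav/+ the neuronal markers had a median of 0.08, beside 0.05 for the chromosome 4 genes. In elav/v105975 against v105975/+ it was 0.07 beside 0.09. The part of these markers in the changes of chromosome 4 genes was not tested.

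**Figure D3:**
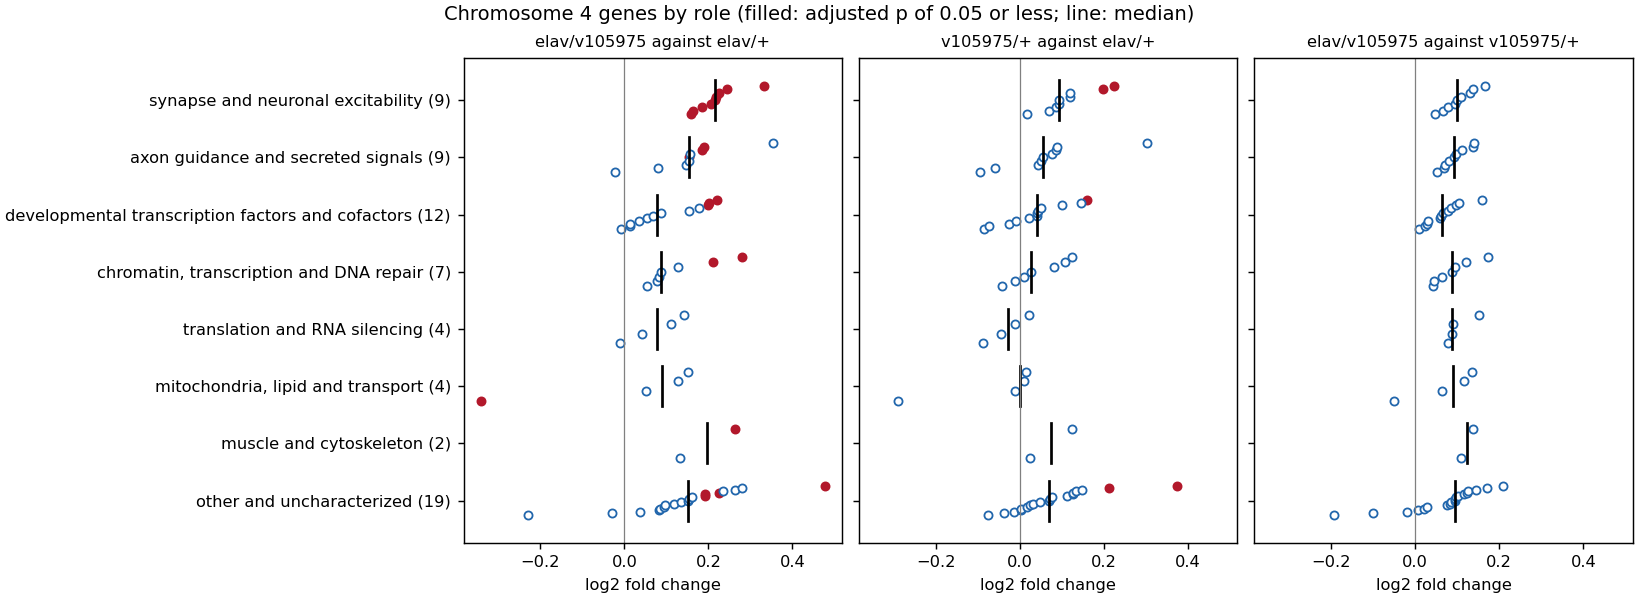
Log2 fold change of the 66 chromosome 4 genes by role in the 3 comparisons, with 1 point per gene, filled where the adjusted p from limma is 0.05 or less, a line at the median of each role and the number of genes in brackets. All 9 genes of the synapse list are filled in elav/v105975 against elav/+, and no gene is filled in elav/v105975 against v105975/+.

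The heads of v105975/+ flies, which carry the transgene without the driver, showed a smaller difference from the same elav/+ arrays. Since both comparisons share these elav/+ arrays, they are not independent, and their values are given side by side as a description. Of the 66 genes 5 passed, all higher, namely CG31999, mGluR, onecut, Kif3C and Ekar. That is 7.58% of the chromosome 4 genes, beside 5.89% of the genes of other chromosomes and 6.1% of all probesets, so the share called was near the background. Among the other genes at or above the level of the median chromosome 4 gene it was 13.2%, and among those that also reached its span 8.47%, both above the share on chromosome 4. Of all the other genes 2.62% were called higher. The log2 fold change was above 0 for 50 of the 66 genes (75.8%, beside 52.7% of the others). Its median was 0.05, a level higher by 3.20%, with quartiles of 0.00 and 0.11, where the other genes had a median of 0.01 and quartiles of -0.08 and 0.09. All 5 v105975/+ arrays lay above all elav/+ arrays for 10 genes (15.2%, beside 3.42% of the others), and below them for apolpp (3.63% of the others). The other genes that reached both the level and the span of the median chromosome 4 gene came closer. Of these, 71.3% were above 0, with a median of 0.0447 beside 0.0455 on chromosome 4. In 10.7% of them all v105975/+ arrays lay above all elav/+ arrays.

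Which arrays entered mattered more here. Without v105975/+ replicate 4, the array with the lowest shift, the median was 0.06 and the count remained 5. Without elav/+ replicate 3 the count was 1, CG31999, the only call that held under all 25 alternative fits at an adjusted p of 0.05. Leaving out any of elav/+ replicates 1 and 2 or v105975/+ replicates 1, 2, 3 and 5 gave 2 or 3.

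Set against v105975/+, which shares the transgene, elav/v105975 had 0 of 66 chromosome 4 genes past an adjusted p of 0.05 in limma (0.317% of the other genes and 0.417% of all probesets were called). Without adjustment 19 genes had a p under 0.05, beside 8.51% of the other genes, and with an intensity trend in limma 1 gene, NfI, passed (adjusted p = 0.0370). The log2 fold change was above 0 for 62 of the 66 genes (93.9%, beside 47.9% of the others). Its median was 0.09, a level higher by 6.34%, with quartiles of 0.06 and 0.12, where the other genes had a median of -0.00 and quartiles of -0.08 and 0.06. Without v105975/+ replicate 4 the median was 0.07. Of the other genes that reached both the level and the span of the median chromosome 4 gene, 66.8% were above 0, with a median of 0.02.

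For 8 genes (12.1%, beside 1.1% of the others) the ranges of elav/v105975 and v105975/+ did not overlap, with elav/v105975 the higher. These were Cals, NfI, CG11155, toy, Asator, Ank, Taf3 and 4E-T. Among other genes at or above the level of the median chromosome 4 gene this share was 2.81%, and among those that also reached its span 4.23%. Ank, the ankyrin gene, had a log2 fold change of 0.11 with a 95% confidence interval from 0.01 to 0.20. Taf3, a subunit of the general factor TFIID, had 0.09 with an interval from 0.02 to 0.17. The 4 genes below 0 were Mpv17, CG11076, apolpp and CG31999, with -0.19, -0.10, -0.05 and -0.02.

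Ordered by their means, 48 of the 66 genes (72.7%) were highest in elav/v105975, between in v105975/+ and lowest in elav/+, and 2 had the reverse order. Of the genes of other chromosomes 21.3% had the first order and 20.7% the reverse.

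**Figure D4:**
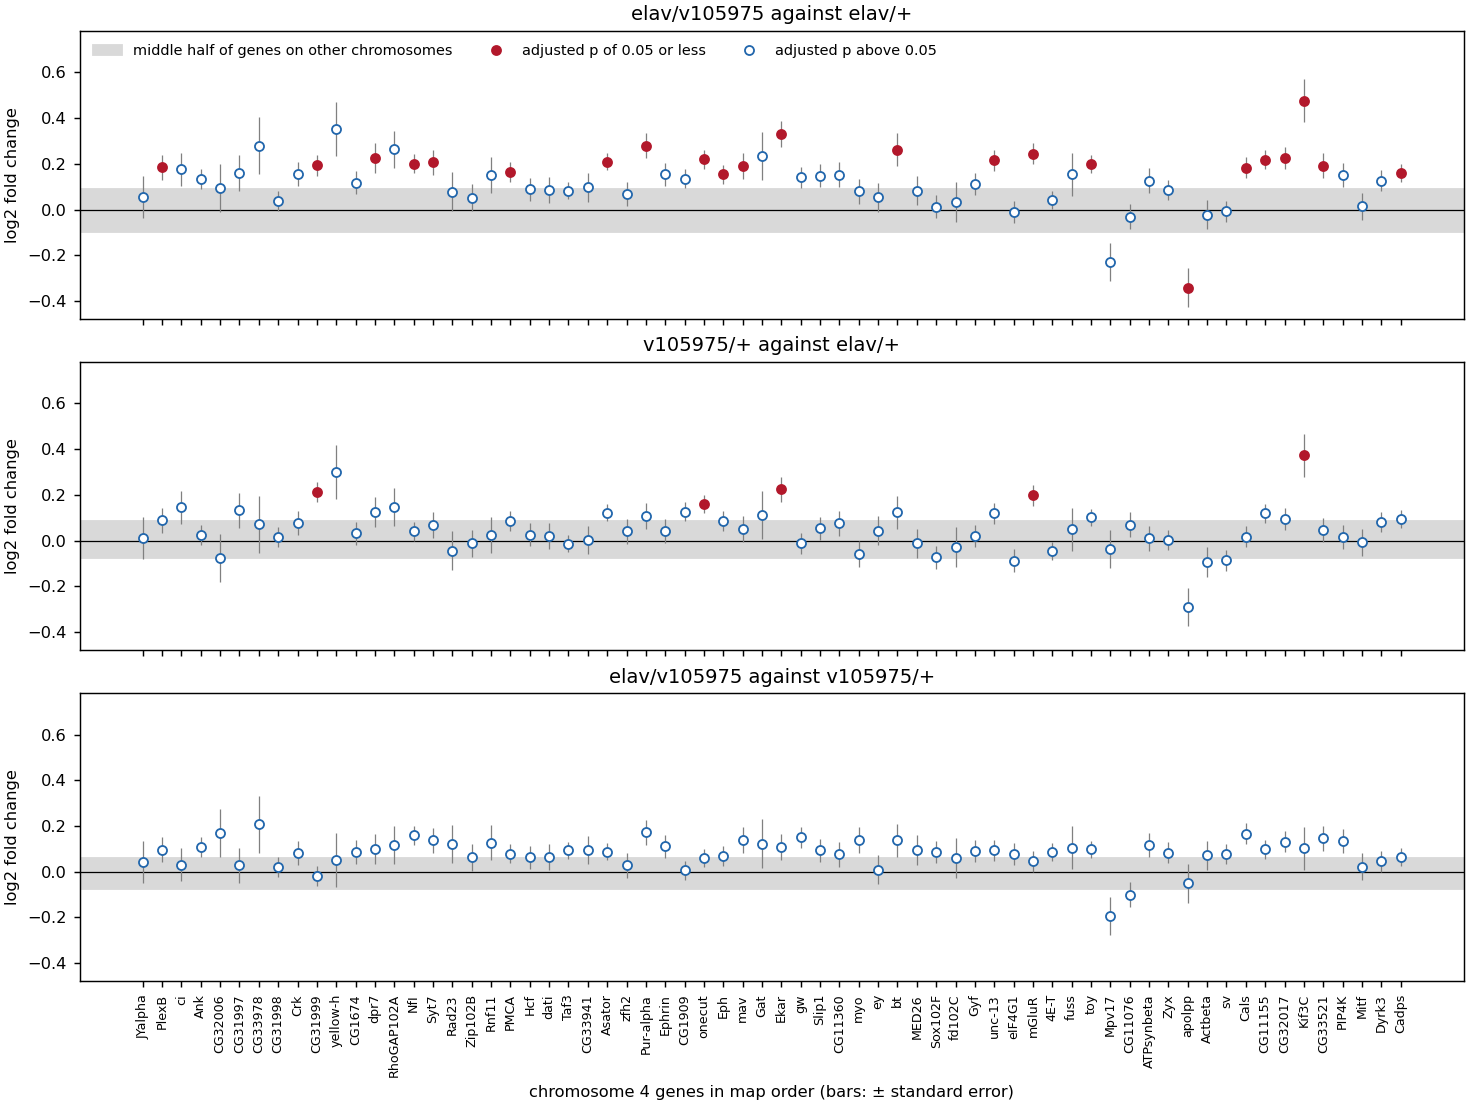
Log2 fold change ± standard error of the 66 chromosome 4 genes in map order in the 3 comparisons, filled where the adjusted p from limma is 0.05 or less, with a grey band between the quartiles of the genes on other chromosomes. Most genes lie above 0 along the whole map, with 23, 5 and 0 filled points.

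The higher levels ran along the whole chromosome. With the 66 genes taken in the map order of RefSeq and split into 3 blocks of 22, the median log2 fold change of elav/v105975 against elav/+ was 0.16 in the first, 0.14 in the middle and 0.14 in the last block. The number called was 6, 7 and 10. In the first and middle blocks all 22 genes were above 0, and in the last block 16 were. The longest run of called neighbours was 5 measured genes near the end of the map, Cals, CG11155, CG32017, Kif3C and CG33521. Shorter runs held onecut, Eph and mav, and NfI and Syt7.

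Chromosome 4 genes are long, and gene length went with the change elsewhere in the genome too. The median span from the first to the last annotated base was 10.5 kb on chromosome 4 and 2.15 kb on the other chromosomes. Among the other genes, those spanning at least as much as the median chromosome 4 gene numbered 1615, and in elav/v105975 against elav/+ they had a median log2 fold change of 0.07, with 72.0% above 0 and 13.1% called. Of these, the 307 that also had a mean level at or above the median of the chromosome 4 genes had a median of 0.07, with 77.5% above 0 and 19.5% called. These strata were chosen after the values had been seen.

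Within bins of span the chromosome 4 genes had the higher median throughout. Against elav/+, in elav/v105975 it was 0.10 on chromosome 4 and -0.02 elsewhere under 5 kb, and 0.14 and 0.03 from 5 to 10 kb. It was 0.15 and 0.04 from 10 to 20 kb, and 0.16 and 0.08 at 20 kb or more. The number called on chromosome 4 was 1 of 13, 5 of 18, 10 of 23 and 7 of 12 in these bins (7.69%, 27.8%, 43.5% and 58.3%). Elsewhere it was 764 of 9303, 145 of 1322, 82 of 820 and 138 of 877. In elav/v105975 against v105975/+ the median lay between 0.08 and 0.10 in all 4 bins of chromosome 4, and between -0.02 and 0.03 elsewhere. In v105975/+ against elav/+ it ran from 0.01 to 0.08 on chromosome 4 and from -0.00 to 0.05 elsewhere.

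**Figure D5:**
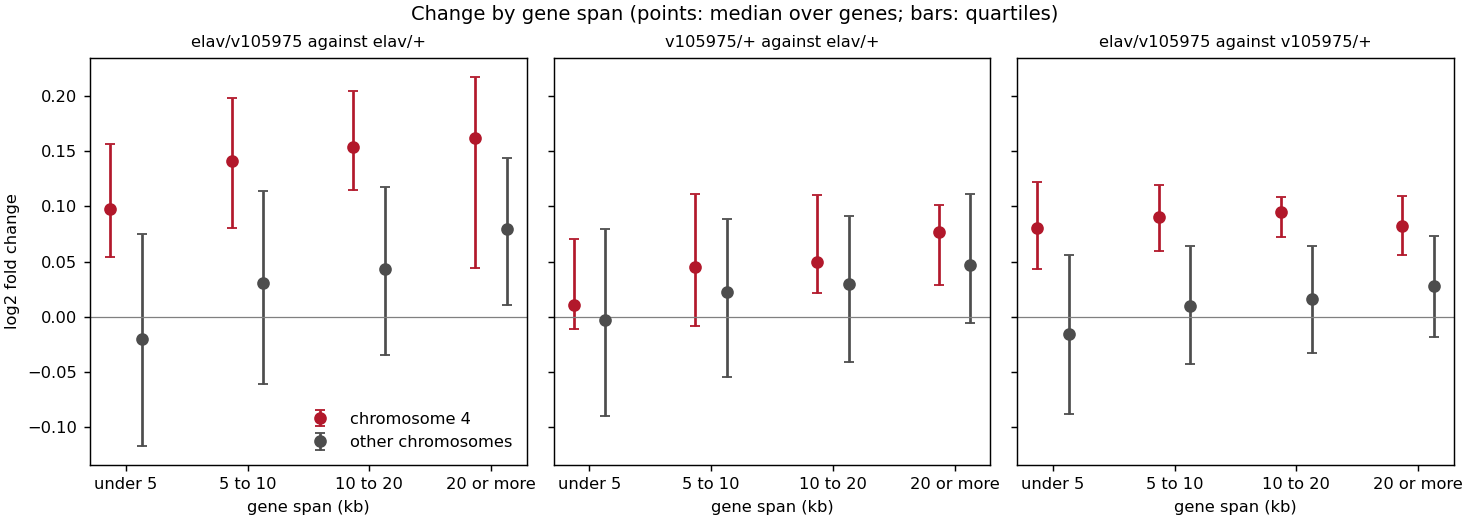
Median log2 fold change with quartiles of chromosome 4 genes and of genes on other chromosomes, in 4 bins of gene span in kb and in the 3 comparisons. The chromosome 4 median is the higher in each bin, and in elav/v105975 against elav/+ it runs from 0.10 to 0.16 while the other genes run from -0.02 to 0.08.

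Across the 66 genes the change of elav/v105975 against elav/+ was only weakly correlated with level, span or place. Pearson's r was 0.01 with the mean level, 0.11 with the span and -0.18 with the map order, and Spearman's rho was 0.18, 0.15 and -0.16. These values are across genes of the same arrays, which are not independent, and are a description. Split at their median level, the brighter 33 genes had a median change of 0.16, with 16 called and 25 whose elav/v105975 arrays all lay above the elav/+ arrays. The dimmer 33 had a median of 0.10, with 7 called and 8 apart in this way.

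Genes for proteins of chromosome 4 chromatin and of heterochromatin were read beside the chromosome itself. Of 20 listed genes, those of Pof and HP1a among them, 16 were measured, and 0 passed in any of the 3 comparisons in limma. Over all genes of the other chromosomes 9.16%, 5.89% and 0.317% were called. At these shares few of 16 genes would be called, so the count says little about them. The log2 fold change of elav/v105975 against elav/+ was -0.04 for Pof (adjusted p = 0.695), -0.03 for the HP1a gene (adjusted p = 0.846) and 0.18 for wde, a partner of the methyltransferase that acts on chromosome 4 (adjusted p = 0.0945). The median over the 16 was 0.03, with 12 above 0. In v105975/+ against elav/+ it was 0.05, with 13 above 0. In elav/v105975 against v105975/+ it was -0.01, with 7 above 0.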

How the data were processed

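RMA, run by the authors, subtracted background, equalized the array distributions by quantiles and combined the probes of each probeset, and the deposited log2 values are its output. The tool named in the submitters' processing notes is oligo 1.44.0. Because of the quantile step a change common to most transcripts cannot be seen, and values are relative to the bulk of the probesets. The main fit used limma 3.58.1 (R 4.3.3, lmFit, contrasts.fit, eBayes) on 16322 probesets and 15 arrays, and a gene was called at a Benjamini-Hochberg adjusted p of 0.05 across those probesets. The number of arrays limits the precision. Exact permutation tests went through the 252 ways to divide 10 arrays.

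The platform annotation gave 1 symbol to 13441 probesets, several to 555 and none to 2326. Entrez identifiers tied 13064 to a RefSeq gene (assembly Release 6) and symbols a further 217. No build is stated for the array annotation, so no coordinates are printed, and RefSeq served for names, order and span. The members, the role lists, the marker lists and the alternatives were chosen with earlier results of these data known. Named were all called genes, the 3 highest and 3 lowest changes of each comparison and up to 4 genes of each role with the smallest p. From these, the genes printed in full were picked with their values known. The test was first run on simulated data.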

Additional observations from a re-analysis of the deposited data

Results flagged for a closer look

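Of the groups of 5 arrays examined, which covered the 41 chromosome 4 genes picked by the naming rule and the median shift, 7 held an array far from the other 4. Chance gives about 1 in 20 such groups, and 126 were examined. ATPsynbeta stood at 12.5 in elav/v105975 replicate 4, where the other arrays of the genotype lay between 12.3 and 12.4. toy stood at 10.2 in elav/v105975 replicate 1 (10.249 beside a next highest of 10.2106). unc-13 was low in v105975/+ replicate 4, at 10.8, where the others lay between 10.897 and 10.939. In elav/+ replicate 4, NfI was at 10.4 and gw at 10.1, both the lowest of the genotype. Ephrin was at 9.63 in elav/+ replicate 5, the highest of the genotype. The median shift of the chromosome 4 genes was -0.0137 in elav/+ replicate 2, where the other elav/+ arrays lay between 0.00355 and 0.00802. None of these values was left out of the fits.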

How the results depend on the processing

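In elav/v105975 against elav/+, 12 of the 23 calls held under all 25 alternative fits at an adjusted p of 0.05, and the median kept its direction, between 0.13 and 0.16. Leaving out 1 array gave 13 to 23 calls, with 15 without elav/+ replicate 5, 13 without elav/v105975 replicate 2 and 14 without elav/v105975 replicate 4. An adjusted p of 0.01 gave 11, a change of at least 1.5-fold 0, and the intensity trend the most, 32. In v105975/+ against elav/+, leaving out 1 array gave 1 to 6, with 3 without elav/+ replicate 1 or 2, 1 without elav/+ replicate 3, 2 without v105975/+ replicate 1 or 2, and 3 without v105975/+ replicate 3 or 5. The fit of these 2 genotypes alone gave 2 calls, 1 of them lower, the intensity trend 9, and both an adjusted p of 0.01 and a change of 1.5-fold 0. The median lay between 0.04 and 0.06. Between elav/v105975 and v105975/+ the count was 0 except with the intensity trend, which gave 1, and the median lay between 0.07 and 0.10. The cause of these differences was not tested.

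Changes near 0 turned sign in 6 cases, none of them called. eIF4G1 in elav/v105975 against elav/+ was 0.00311 with arrays centred on their medians, and leaving out 1 array gave -0.0270 to 0.00927 (without elav/v105975 replicate 3). Leaving out 1 array gave Actbeta -0.0563 to 0.00985 (without elav/+ replicate 4), and 0.00217 without elav/v105975 replicate 5. Against v105975/+, elav/v105975 gave CG31999 -0.0398 to 0.000397 (without elav/v105975 replicate 1) and apolpp -0.120 to 0.00895 (without elav/v105975 replicate 2).

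Replicate numbers are shared between genotypes, but same-numbered arrays did not deviate together (correlations from -0.0760 to 0.176, 2 of 15 above 0.1), so the arrays were not paired. With the replicate number as a block, 18, 4 and 0 chromosome 4 genes were called in the 3 comparisons, in the order above.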

Other observations

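Chromosome 4 also carries genes without a protein, of which 5 had a probeset of 1 symbol. None passed in any of the 3 comparisons in limma. In elav/v105975 against elav/+ the log2 fold change was 0.15 for asRNA:CR43425, 0.18 for lncRNA:CR43437, 0.18 for lncRNA:sphinx, 0.24 for mir-954 and -0.20 for snoRNA:CD-24, with adjusted p values from 0.118 to 0.557. Their mean levels in elav/v105975 lay between 4.20 and 5.90, below the array medians. mir-954 is measured here through its gene, so the value is not that of the mature miRNA, and the array probes of asRNA:CR43425 were not checked for strand.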
